A study of Mus musculus with 7 samples.

Results

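Microglia are the resident macrophages of the brain, and 30 genes that mark them or related macrophages were followed in the arcuate nucleus of Dusp8-deficient mice and their controls. The genes were taken by name from a list of known microglial and macrophage genes and not by a threshold on their values. Earlier results of these data were known when they were chosen. A probe belonged to a gene when the platform annotation gave it that symbol. Of the 30 genes, 28 had at least 1 probe, 37 probes in all, out of 16593 genes named on the array. Csf1r and Cd68 had no probe under these symbols. The remaining 28 were divided by role into 10 homeostatic genes, 3 genes of complement C1q, 10 genes of activation and phagocytosis and 5 general myeloid and leukocyte genes.

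Total RNA of the arcuate nucleus of 40-week-old males (strain C57BL/6J) was read on an Illumina bead array, with 1 array for each of 4 Dusp8-deficient mice and 3 controls. Chow was replaced at 8 to 10 weeks of age, in both groups, by a fat-rich diet (45% of energy as fat) that was given for 30 weeks, and knockout and wild-type mice came from shared litters. Dusp8 encodes a phosphatase that acts on Jnk and related kinases. The labels call the arrays biological replicates, and they do not name the altered allele or whether it acts in all cells. Array names start with ko for Dusp8-deficient animals (ko_108, ko_125, ko_148, ko_168) and with wt for controls (wt_136, wt_145, wt_177).

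Between 12295 and 13976 of 25697 probes were detected per array, at a detection p below 0.05. The log2 signal of Dusp8 was 6.31 to 7.12 in the 4 Dusp8-deficient arrays and 9.23 to 9.29 in the 3 controls, and the sources used here do not say where its probe lies relative to the altered sequence. Of the markers of arcuate neurons, Npy, Cartpt, Gal and Sst were detected on all 7 arrays, Ghrh, Th and Tac2 on 6, Pomc on 5 and Kiss1 on 3, and no probe carried the symbol Agrp. Array ko_108 stood apart from the others of its genotype. It had a mean signal of 58.0 units, whereas ko_125, ko_148 and ko_168 had 73.4 to 74.9 and the controls 60.7 to 72.2. On the log2 scale its oligodendrocyte genes averaged 1.20 relative to the 7-array mean, against -0.56 to 0.09 elsewhere. The members that moved most without it are therefore also given that way. Because RNA of whole tissue was measured, fewer microglia and less RNA per microglial cell cannot be told apart.

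In the healthy brain microglia survey their surroundings with fine processes, steered by receptors for nucleotides and for chemokines that neurons release, and this resting state is called homeostatic. They remove dying cells and synapses, tagged in part by the complement protein C1q, and on damage they raise receptors, lysosomal proteases and antigen presentation while homeostatic genes decline. In the mediobasal hypothalamus of mice, fat-rich diets are known for a reaction of microglia. The gene programme depends on the transcription factor PU.1, product of Spi1, with its partner Irf8.

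The promoters of a few members are shown because PU.1 and its relatives of the Ets family recognise purine-rich stretches around the letters GGAA. From the RefSeq table of the GRCm38.p6 build, promoter windows were counted for 23 of the member genes, 25 windows in all. Each held 300 bases, from 250 before the start of transcription to 50 after it. Cd74 and Cd14 were left out of the member windows, while the windows of all genes were not restricted in this way. The member shares below hold for the 25 counted windows only. The letters AGGAAGT, on either strand, stood in 10 of these 25 windows (9 genes), or 40% of them, against 9.35% of all 32851 windows. The shorter letters GAGGAA, which can overlap them, stood in 56% of the member windows against 28.3% of all, and the joint form GAGGAAGT in 12% against 3.2%. The letters TATAAA stood in 5 member windows, or 20%, against 13.6% of all. These matches are descriptions of letters and not binding sites, and the motifs were chosen, with 1 more not given here, with the member sequences in view. The 120 bases before the start are printed here 5′ to 3′ on the strand of the gene, with AGGAAGT and GAGGAA, or their reverse complements, in capitals.
P2ry12, chr3:59262986-59263105, minus strand: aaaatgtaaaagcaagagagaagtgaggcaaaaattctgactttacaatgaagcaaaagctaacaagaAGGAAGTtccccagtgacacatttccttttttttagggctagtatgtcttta
P2ry13, chr3:59210883-59211002, minus strand: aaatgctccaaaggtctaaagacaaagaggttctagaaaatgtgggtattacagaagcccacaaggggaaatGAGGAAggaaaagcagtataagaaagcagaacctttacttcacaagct
C1qb, chr4:136886201-136886320, minus strand: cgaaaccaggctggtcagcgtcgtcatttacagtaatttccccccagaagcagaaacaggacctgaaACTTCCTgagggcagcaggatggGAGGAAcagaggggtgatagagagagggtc
Lyz2, chr10:117282273-117282392, minus strand: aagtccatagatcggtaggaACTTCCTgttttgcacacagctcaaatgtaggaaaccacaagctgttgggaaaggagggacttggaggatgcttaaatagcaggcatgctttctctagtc
Laptm5, chr4:130913196-130913315, plus strand: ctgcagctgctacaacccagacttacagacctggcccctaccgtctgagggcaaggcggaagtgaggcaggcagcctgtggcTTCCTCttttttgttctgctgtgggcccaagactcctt
Aif1, chr17:35176053-35176172, minus strand: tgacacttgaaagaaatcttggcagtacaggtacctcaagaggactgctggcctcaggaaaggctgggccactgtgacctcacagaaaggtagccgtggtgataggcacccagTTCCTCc
The adenosine diphosphate receptors P2ry12 and P2ry13, neighbours on chromosome 3, each hold 1 of these stretches, 52 and 48 bases before the start. That of C1qb holds both kinds, 53 and 30 bases before it.

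No member gene differed between the genotypes beyond the spread between arrays. A probe was tested when it was detected on at least 3 of the 7 arrays, and 22 of the 28 genes met this, 15 of them on all 7. None of the 22 passed an adjusted p of 0.05 (limma, Benjamini-Hochberg over all 14067 tested probes), where Dusp8 was the only probe called, or 0.00711% of those tested. At an unadjusted p below 0.05 the count was also 0 of 22, against 4.81% of all tested probes, and in 0 of 22 genes were the groups free of overlap, against 5.57% of all. The member estimates lay from -0.41 to 0.40 log2 units with a median of 0.07, and 12 were above 0 and 10 below. Over all tested probes the median was -0.00 and 49.7% lay above 0. The largest estimate, that of Cx3cr1, was a factor of 1.33. It was -0.22 with an offset of 50, where Trem2 at 0.25 and Lyz2 at 0.23 were larger in size. With array weights it was -0.32, where Cd74 at 0.52, Mertk at -0.48, Trem2 at 0.37, Lyz2 at 0.35 and Irf8 at 0.35 were larger. The 95% intervals of 20 of the 22 genes lay within a 2-fold change either way (76.8% of all tested probes). Those of P2ry12, Siglech, Ctsd and Laptm5 lay within 1.5-fold (18.6% of all). These fold values hold only for signals with the offset added before the log2 step. The offset shrinks the fold differences of dim probes. For dim members, such as Mrc1, Irf8, Gpr34 and Olfml3, the intervals therefore do not exclude a 2-fold change in the signal itself.

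**Figure D1:**
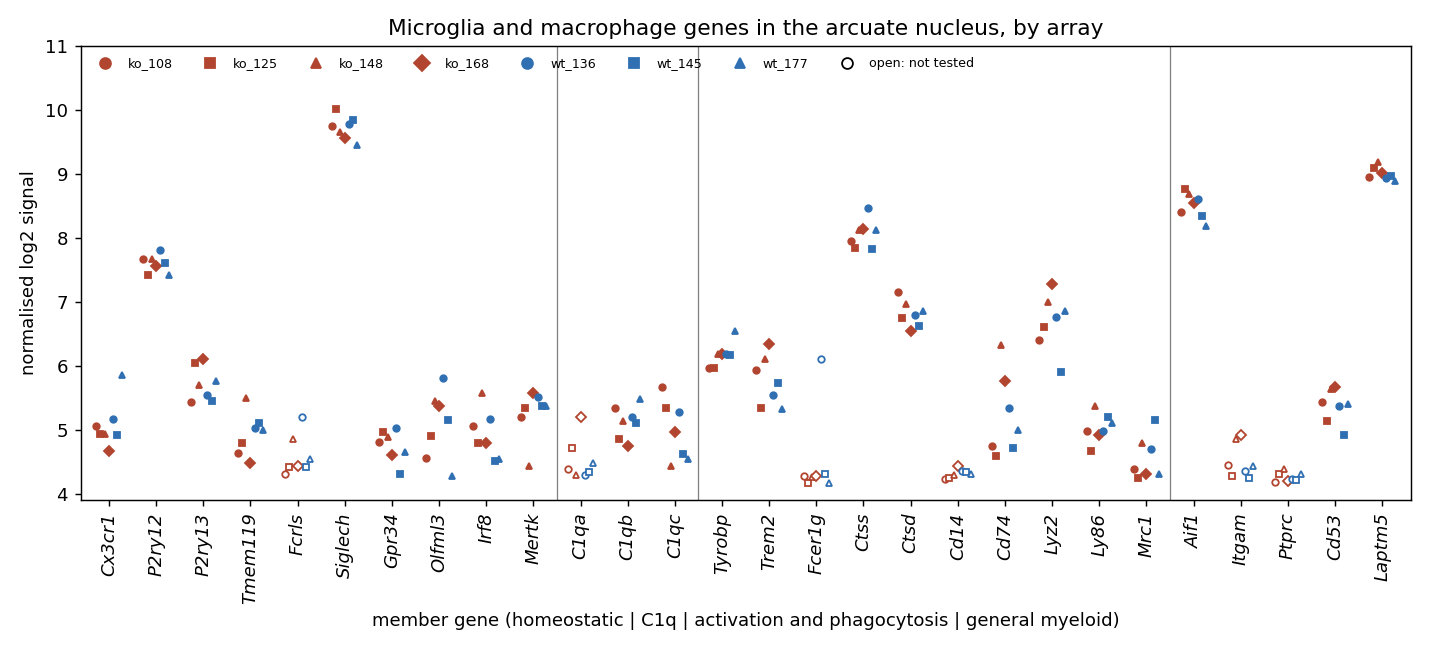
Normalised log2 signal (y axis) of the 28 member genes with a probe (x axis, in order of role) in the 4 Dusp8-deficient arrays (red) and the 3 controls (blue); 1 symbol is 1 array, and open symbols are genes not tested. The red and blue symbols of every tested gene overlap in range, and the 6 untested genes lie near the background apart from single arrays such as wt_136 for Fcer1g at 6.11.

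The homeostatic genes lay on both sides of 0, with 4 higher and 5 lower among the 9 tested and a median difference of -0.02. P2ry12, through which microglial processes move towards injured cells, had log2 signals of 7.68, 7.41, 7.67 and 7.56 in ko_108, ko_125, ko_148 and ko_168, and of 7.81, 7.61 and 7.42 in wt_136, wt_145 and wt_177. The groups overlapped almost fully. The difference was -0.04 (SE 0.19, 95% interval -0.47 to 0.39, adjusted p = 0.996 in limma), which bounds the level of the Dusp8-deficient group between 0.723 and 1.31 times that of the controls. Siglech, a sialic acid receptor of microglia that signals through Tyrobp, read 9.75, 10.01, 9.65 and 9.56 against 9.78, 9.84 and 9.45, a difference of 0.05 (SE 0.21). Of its dimmer probes, 1 read 0.32 (SE 0.29) and the other, detected on 2 arrays, was not tested.

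Cx3cr1, the receptor for the neuronal chemokine Cx3cl1, gave the lowest estimate of all members. Its log2 signals were 5.06, 4.93, 4.93 and 4.66 in the Dusp8-deficient arrays and 5.16, 4.92 and 5.85 in the controls, so that wt_177 stood above the rest. The difference was -0.41 (SE 0.25, interval -0.97 to 0.15) and without wt_177 it was -0.14. The ligand Cx3cl1 was also highest in wt_177, at 8.31 against 7.65 to 7.94 on the other arrays, and differed by -0.19 (SE 0.20) without passing.

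The other homeostatic genes also overlapped between the groups. P2ry13 read 5.44, 6.04, 5.70 and 6.10 against 5.54, 5.44 and 5.76, a difference of 0.24 (SE 0.22). Tmem119, a membrane protein that marks resident microglia, spread over 4.47 to 5.50 among Dusp8-deficient arrays and over 4.99 to 5.11 among controls (difference -0.20, SE 0.26), and it was not detected on ko_168. Mertk, a receptor kinase for the uptake of dying cells, was lowest in ko_148 at 4.43 and lay between 5.20 and 5.57 elsewhere (difference -0.28, SE 0.27). Olfml3, which encodes a secreted protein, spread most among these genes in the controls, with 5.81, 5.15 and 4.28 (difference -0.02, SE 0.36). Irf8, the transcription factor named above, read 5.06, 4.79, 5.57 and 4.79 against 5.16, 4.51 and 4.53 (difference 0.32, SE 0.27) and was detected in 1 of 3 controls. Gpr34, a receptor for lysophosphatidylserine, differed by 0.15 (SE 0.22) on 1 probe and by 0.33 (SE 0.27) on the other. Fcrls, an Fc receptor-like scavenger receptor, was detected on 2 arrays and not tested. Its highest value was 5.20 in wt_136, and the other 6 arrays lay between 4.31 and 4.85.

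C1q is built from 3 chains whose genes lie side by side on chromosome 4, and the chains gave no common direction. C1qb was detected on all arrays and read 5.33, 4.86, 5.13 and 4.74 against 5.20, 5.11 and 5.47, a difference of -0.24 (SE 0.22). C1qc read 5.67, 5.33, 4.43 and 4.96 against 5.28, 4.61 and 4.53, a difference of 0.29 (SE 0.32, interval -0.41 to 1.00), and was not detected on 1 array of the Dusp8-deficient group and 1 of the controls. Array ko_108 held the highest C1qc value, and without it the difference was 0.10. C1qa was detected on ko_125 and ko_168 only, at 4.71 and 5.20 against 4.29 to 4.47 on the other arrays, and was not tested. All 3 controls were at background, which gives a bound of at least 1.07-fold higher for the Dusp8-deficient mean, with measured means of 4.65 and 4.37. This bound rests on ko_125 and ko_168 and makes no allowance for the spread between arrays. The median of the 2 tested chains was 0.02, and -0.12 without ko_108.

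**Figure D2:**
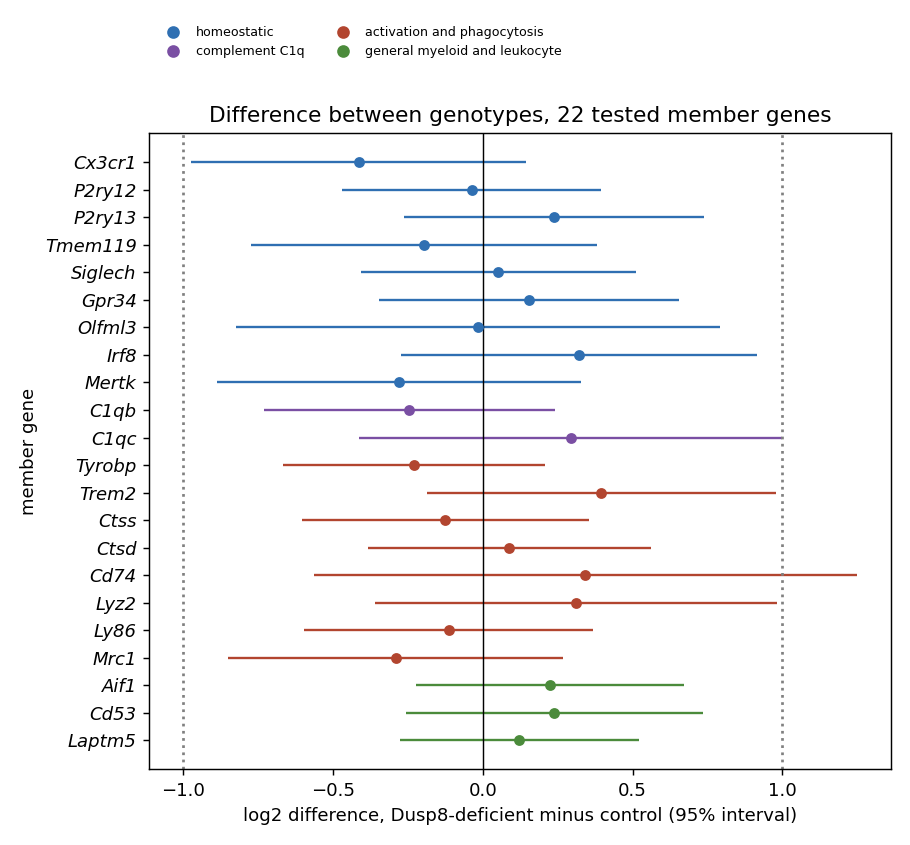
Log2 difference, Dusp8-deficient minus control (x axis), with its 95% interval from limma for the 22 tested member genes (y axis, coloured by role); dotted lines mark a 2-fold change. Every interval crosses 0, and those of Cd74 and C1qc reach the 2-fold line or pass it. Fold changes are those of signals with the offset added, which shrinks them for dim genes.

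The genes of activation and phagocytosis were also divided, with 4 higher and 4 lower among the 8 tested and a median of -0.01. Trem2, a lipid receptor, and Tyrobp, the adaptor through which it signals, differed in opposite directions without passing. Trem2 read 5.93, 5.33, 6.10 and 6.34 in the Dusp8-deficient arrays and 5.54, 5.74 and 5.32 in the controls. The 3 highest values were of Dusp8-deficient mice, while ko_125 lay with the controls, and the difference was 0.40 (SE 0.26, interval -0.19 to 0.98). Tyrobp read 5.96, 5.96, 6.19 and 6.18 against 6.18, 6.17 and 6.55, a difference of -0.23 (SE 0.20) that was -0.11 without wt_177, its highest array. Fcer1g, which encodes the signalling chain of Fc receptors and is a relative of Tyrobp, was detected only on wt_136, at 6.11 against 4.17 to 4.30 on the other 6 arrays. Its bound, at least 1.27-fold lower in the Dusp8-deficient group with measured means of 4.25 and 4.86, rests on that array.

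The lysosomal proteases were bright and lay close together in both groups. Ctss, the cathepsin typical of microglia, read 7.94, 7.84, 8.12 and 8.14 against 8.46, 7.82 and 8.12 (difference -0.13, SE 0.21, interval -0.60 to 0.35). Ctsd, an aspartic protease of lysosomes in many cell types, read 7.15, 6.74, 6.96 and 6.54 against 6.79, 6.62 and 6.85 (difference 0.09, SE 0.21). Ctsd lies on chromosome 7 only 280 kb from Dusp8, at chr7:142375910-142387827 in GRCm38.p6, and is linked to it. Its level did not pass the test, and its interval ran from -0.38 to 0.56.

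Lyz2 and Cd74 spread widely between animals of the same genotype. Lyz2, the lysozyme of macrophages, read 6.40, 6.60, 7.0 and 7.27 in the Dusp8-deficient arrays and 6.77, 5.90 and 6.85 in the controls, a difference of 0.31 (SE 0.30) that was 0.01 without wt_145. A second probe had the same highest array, ko_168, and the same lowest array, wt_145, with a difference of 0.20 (SE 0.25). Whether these probes also read the close copy Lyz1 was not tested. Cd74, the invariant chain of class II antigen presentation, read 4.75, 4.59, 6.33 and 5.76 against 5.33, 4.72 and 4.99. The values of ko_148 and ko_168 lay above all controls, and those of ko_108 and ko_125 beside the lowest control. The difference was 0.34 (SE 0.41, interval -0.56 to 1.25), the widest of all members, and without ko_148 it was 0.02. The dimmer Cd74 probe was again highest in ko_148, at 5.60, but lowest in ko_168, at 4.22, and differed by -0.03 (SE 0.33).

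The remaining genes of this role were dim. Ly86, a secreted partner of a Toll-like receptor homologue, differed by -0.11 (SE 0.22), with 5.37 in ko_148 and 4.66 to 5.19 elsewhere. Mrc1, the mannose receptor of macrophages at vessels and meninges, read -0.29 (SE 0.25) on a probe seen on 1 Dusp8-deficient and 2 control arrays. Cd14, a co-receptor for bacterial lipopolysaccharide, was not detected on any array.

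The general myeloid and leukocyte genes that could be tested all had estimates above 0, in 3 of 3 genes, with a median of 0.23, and none passed. With the tested probes of a gene averaged, the median was 0.12 and Aif1 was at 0.004. Laptm5, a lysosomal membrane protein of blood-derived cells, had the smallest spread of all members, with a residual SD of 0.08 against a median of 0.34 over all tested probes. It read 8.95, 9.08, 9.18 and 9.01 against 8.94, 8.97 and 8.89. Of the Dusp8-deficient arrays, 3 lay above every control and ko_108 lay between them. The difference was 0.12 (SE 0.18, interval -0.28 to 0.52), or 1.09-fold with bounds of 0.825 and 1.44.

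Aif1, better known as Iba1, the usual stain for microglia, read 8.40, 8.77, 8.69 and 8.55 against 8.60, 8.35 and 8.18, a difference of 0.23 (SE 0.20). Its dimmer probes read -0.05 (SE 0.24) and -0.16 (SE 0.25), so that the direction depended on the probe. Cd53, a tetraspanin of leukocytes, read 5.44, 5.14, 5.64 and 5.67 against 5.37, 4.92 and 5.40 (difference 0.24, SE 0.22). Itgam, the integrin chain CD11b, was detected on ko_148 and ko_168 only, at 4.85 and 4.91 against 4.25 to 4.45 elsewhere. It was not tested, and its bound was at least 1.05-fold higher, with measured means of 4.62 and 4.34. That bound rests on ko_148 and ko_168. Ptprc, the leukocyte antigen CD45, was not detected on any array by either of its 2 probes.

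The mean level of the 22 tested genes overlapped between the genotypes. It weights dim and bright genes alike, and opposite shifts of genes or roles cancel in it. Relative to the mean of the arrays it was -0.04, -0.09, 0.16 and 0.04 log2 units in ko_108, ko_125, ko_148 and ko_168, and 0.12, -0.13 and -0.06 in wt_136, wt_145 and wt_177. The oligodendrocyte excess of ko_108 had no counterpart in this average. Without ko_108, 12 of the 22 genes were again above 0 and 10 below, and 15 moved by less than 1.5 times, to values between -0.47 and 0.45. Of the other 7, C1qc is given above, Cd74 was at 0.55, P2ry13 at 0.37, Olfml3 at 0.15, Tmem119 at -0.12, P2ry12 at -0.07 and Ctsd at -0.012. The medians without it were 0.05 for homeostatic genes, -0.06 for activation genes and 0.25 for general myeloid genes. By role, ko_108 was highest for C1q at 0.46, ko_148 for activation genes at 0.32 and for general myeloid genes at 0.21, and wt_136 for homeostatic genes at 0.20. Array ko_148 held the highest value of 5 of the 22 genes, or 22.7%, where it held the highest of 10.4% of all tested probes. Array ko_168 also held the highest value of 5, against 18.6% of all. Array wt_136 held the lowest value of none of the 22, against 8.97% of all tested probes.

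**Figure D3:**
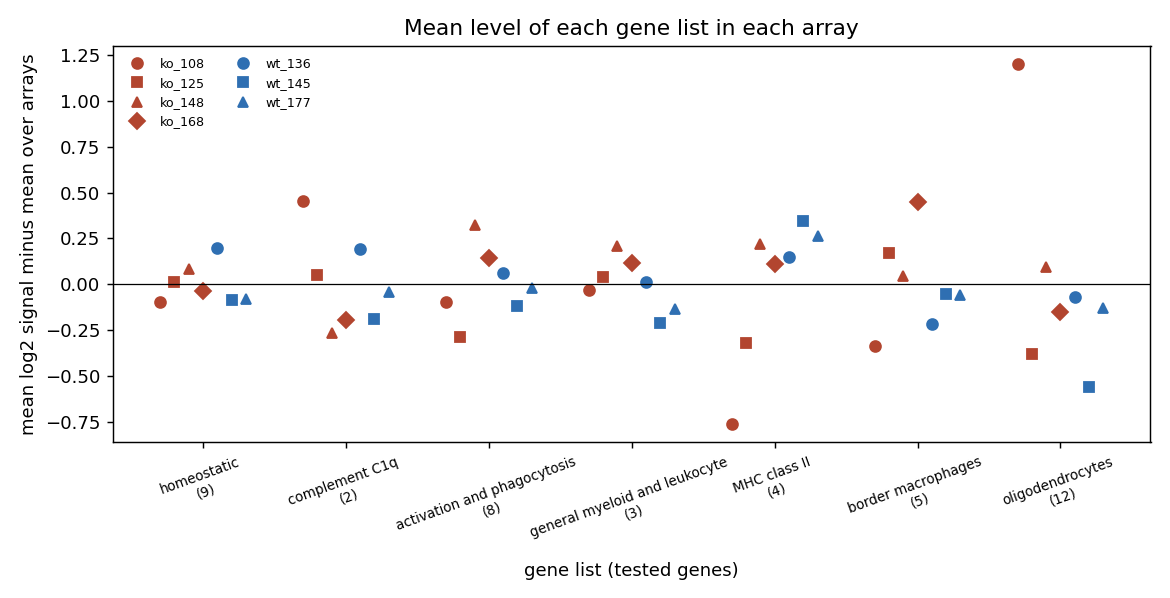
Mean over the tested genes of a list of the log2 signal minus the mean of all 7 arrays (y axis), for 7 lists with their number of genes (x axis); red symbols are Dusp8-deficient and blue symbols control arrays. The 4 lists of members stay between -0.29 and 0.46, while ko_108 lies at 1.20 for oligodendrocytes and at -0.76 for MHC class II.

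Ligands and growth factors that maintain microglia gave no call either. Of 8 tested, 3 had estimates above 0 and 5 below, with a median of -0.15. Csf1 and Il34, which both activate the receptor encoded by Csf1r, differed by 0.12 (SE 0.25) and -0.44 (SE 0.29), and Il34 was seen on 1 Dusp8-deficient and 2 control arrays. Tgfb2 read 0.47 (SE 0.26), Cd47, a signal against phagocytosis, -0.38 (SE 0.23), and Gas6, a ligand of Mertk, -0.29 (SE 0.24). Of 8 tested transcription factors and Tgfb receptors, 3 were above 0 and 5 below (median -0.08), with Irf5 at -0.80 (SE 0.38), Smad3 at -0.42, Tgfbr1 at 0.32 and Maf at -0.20. Irf5 was detected on 3 arrays, and its estimate was -0.27 without wt_177. Spi1, which encodes PU.1, was not detected on any array.

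Among 18 further tested genes enriched in microglia, 8 were above 0 and 10 below, with a median of -0.10. An unadjusted p below 0.05 (limma) was found for 1 of the 18, against 4.81% of all tested probes. In 3 of the 18, Plcg2, Cd37 and P2rx4, the groups were without overlap, against 5.57% of all. P2rx4 met the detection filter only through 3 Dusp8-deficient arrays, and Cd37 through the 3 controls and 1 Dusp8-deficient array. The lack of overlap of P2rx4 and Cd37 is thus not independent of the filter. The lowest p was that of Plcg2, a phospholipase downstream of Trem2 and other receptors. It read 5.20, 4.75, 4.66 and 5.76 in the Dusp8-deficient arrays and 5.95, 5.87 and 5.96 in the controls, without overlap. The difference was -0.84 (SE 0.28, interval -1.45 to -0.22, adjusted p = 0.996 in limma), and -1.06 to -0.69 with any 1 array left out. Under the other settings applied to these lists it ran from -0.98 to -0.46. Cd37 read -0.44 (SE 0.20) and Cd33, an inhibitory sialic acid receptor, -0.70 (SE 0.34). P2rx4, an ion channel opened by adenosine triphosphate, was at background in all 3 controls. Its bound was at least 1.12-fold higher for the Dusp8-deficient mean, with measured means of 4.72 and 4.25. None of these passed.

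Genes of the disease-associated state of microglia were likewise divided, with 7 above 0 and 8 below among 15 tested (median -0.03). Apoe, which astrocytes also make, read 7.72, 7.58, 6.98 and 7.11 against 6.92, 6.62 and 7.11, a difference of 0.46 (SE 0.25). Timp2 read 0.46 (SE 0.24), Ank 0.45 (SE 0.23) and Lgals3bp -0.47 (SE 0.26), all without passing. Without ko_108 Apoe was at 0.34, Timp2 at 0.38, Ank at 0.35 and Lgals3bp at -0.26. The median of this list was then 0.20, with 9 above 0 and 6 below. Cst7 was detected on 1 array and Itgax, the integrin chain CD11c, on none. Other complement genes had 7 of 11 estimates above 0 (median 0.11), with C3ar1 at -0.29, C1ra at 0.26 and C4b at 0.17. That list also held genes only named after C1q, namely C1ql1 at -0.13, C1ql2 at 0.11, C1ql3 at 0.05 and C1qbp at 0.32. Its count and median, the latter being the C1ql2 value, are thus not those of complement components alone. Cfb was at background in all 3 controls, with a bound of at least 1.21-fold higher (means 4.83 and 4.41). It met the detection filter only through the Dusp8-deficient group. Of 20 genes of the microglial inflammatory response only 4 could be tested, namely Ccl12 at -0.41, Myd88 at 0.23, Casp1 at -0.05 and Socs3 at 0.05, with a median of 0.00.

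MHC class II genes, which work together with Cd74, spread widely between animals. All 4 tested genes had estimates below 0 (median -0.58), and none passed. Without ko_108, 3 were below 0 and 1 above, with a median of -0.24. H2-Aa read 4.51, 5.06, 6.35 and 6.55 against 6.93, 5.60 and 6.15 (difference -0.61, SE 0.51). H2-Ab1 read 4.51, 5.60, 6.47 and 5.44 against 5.81, 6.02 and 6.39 (difference -0.57, SE 0.39). Both were lowest in ko_108, and without that array they differed by -0.24 and -0.24. Dimmer H2-Ab1 probes read -0.37, -0.14 and -0.06. H2-Eb1 was at 6.09 in wt_145 and between 4.27 and 4.66 elsewhere (difference -0.59, SE 0.37), and H2-DMb1 read -0.00 (SE 0.20), with 0.01 without ko_108 and under some other scalings. Array ko_148 was highest for Cd74 and H2-Ab1, and wt_136 for H2-Aa.

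**Figure D4:**
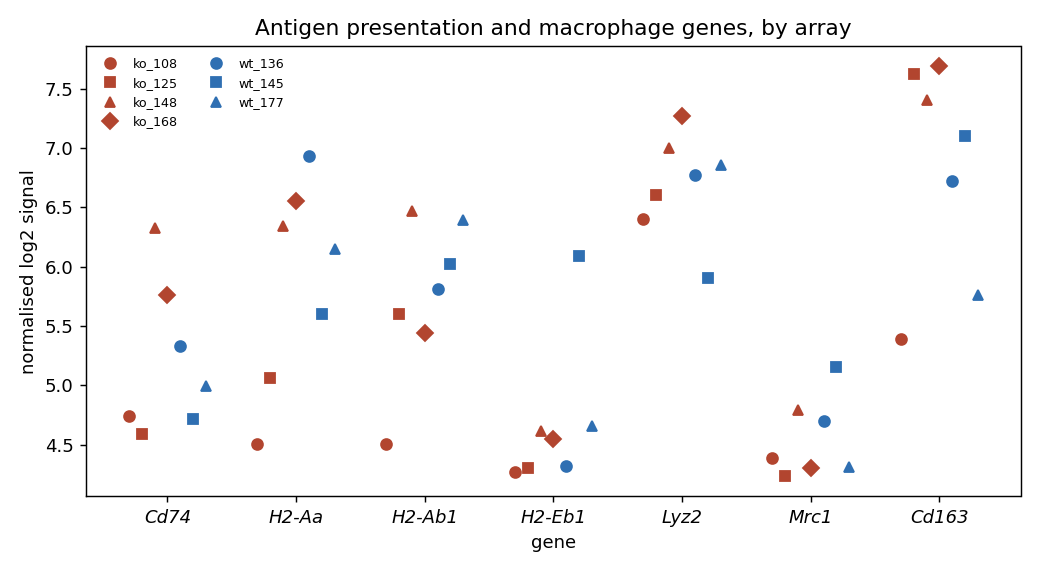
Normalised log2 signal (y axis) of Cd74, of class II genes and of macrophage genes (x axis) on each of the 7 arrays, red for Dusp8-deficient and blue for control. Array ko_108 is the lowest for H2-Aa, H2-Ab1 and Cd163, and red and blue symbols overlap for every gene.

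Macrophages at the borders of the brain were followed through Mrc1 and 5 further tested genes, of which 3 were above 0 and 2 below. Their median was 0.21, and it ran from 0.07 to 0.38 (without ko_108) with each array left out. Under the other settings it was 0.09 to 0.56. The value of 0.56 was the median of Cd163 and Clec10a alone, which were detected on all 7 arrays. Cd163, a haemoglobin scavenger receptor of perivascular macrophages, read 5.39, 7.63, 7.40 and 7.69 against 6.72, 7.10 and 5.76. The difference was 0.50 (SE 0.55), and 1.04 without ko_108. Clec10a read 0.62 (SE 0.45), with its highest value of 7.62 in ko_168, Marco -0.25 and Cbr2 0.21. Lyve1, Pf4, F13a1, Stab1 and Folr2 are textbook markers of these cells and were not tested because their probes were detected on fewer than 3 arrays.

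Markers of other cells in the sample did not pass either, and their levels beside the members are as follows. Of 18 genes of monocytes, neutrophils and lymphocytes, 15 had a probe and only 3 could be tested (2 above 0, median 0.02), with array means of -0.15 to 0.25 in the Dusp8-deficient group and -0.17 to 0.15 in the controls. The 2 tested red blood cell genes had array means of -0.56 to 0.47 and -0.59 to 0.61 (median 0.15). Oligodendrocyte genes were above 0 in 11 of 12 cases (median 0.49), and in 8 of 12 without ko_108 (median 0.19). Astrocyte genes were above 0 in 7 of 9 (median 0.03, and -0.00 without ko_108, with 4 of 9 above 0), neuron genes in 4 of 10 (median -0.12, and 2 of 10 without ko_108), and genes of endothelium and pericytes in 2 of 6 (median -0.05). The part of these cells in the members' values was not tested.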

How the data were processed

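Signals of 7 arrays, 1 for each mouse, were taken from the deposited table of Illumina bead intensities, which are not normalised per the file headers, with a detection p-value deposited beside each intensity. The sources used here do not name the scanner software or its background step. The array columns carry the genotype and a number that no label holds, so they were placed by genotype alone. The authors' second deposited table of processed signal served as an alternative.

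Intensities were corrected for background from the detection p-values, quantile normalised and put on a log2 scale after an offset of 16 (neqc in limma 3.58.1, R 4.3.3). Probes entered the test if detected, at a p below 0.05, on 3 or more of 7 arrays, which held for 14067 of 25697. Genes were named from the platform annotation for 23978 probes, and 1719 had no symbol. The brightest tested probe stood for a gene. The genotypes were compared with limma (lmFit and eBayes, two-sided), with Benjamini-Hochberg adjustment over all tested probes. The procedure was tested on 10 simulated data sets with independent noise for each probe and no array that stood apart. In each, 200 of 14067 probes were changed by 1.5-, 2-, 4- or 6-fold. It recovered 2% of 1.5-fold, 33.8% of 2-fold and 97% of 4-fold changes. In the data only 1 probe was called, so the adjusted threshold was stricter there, and these shares may be too high for the data. Changes as small as the member estimates would therefore seldom be called. A probe not above background on any array of a group gave a bound, and its fitted difference is no bound. The bound was computed from the lowest signal among detected probes of each array of that group. It compares group means, keeps undetected arrays of the other group at their measured signal, and makes no allowance for the spread between arrays.

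The text names Dusp8 and every member with a probe. From the other lists it names genes among the 4 smallest p-values, with the other tested genes of a list where they are few. Undetected genes, further markers, genes named after C1q and the ligand of a member were chosen after their values were seen. The members and the lists were chosen with earlier results of these data known. The number of arrays limits the precision, and the p-values measure the spread between these 7 samples, for which no litter, slide or day is given. Same-numbered arrays of the processed table did not deviate together (correlations of -0.0773, 0.0777 and -7.53e-05 for replicates 1 to 3), so no pairing was used. Alternatives covered background, normalisation, filter, offset, array weights, the processed values, the replicate block and leaving out each array. Promoter sequences came from RefSeq.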

Additional observations from a re-analysis of the deposited data

Results flagged for a closer look

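Among the 4 Dusp8-deficient arrays, 5 of 97 examined values stood far from the other 3, where about 4.85 would by chance, and the 3 controls were too few to examine. Of member probes, the undetected Fcer1g probe was at 4.17 in ko_125 against 4.27 in the others, and the dimmest Lyz2 probe was at 5.01 in ko_168 against 4.22 to 4.24. Array ko_108 gave the other 3. Its Cd163 level was 5.39 against 7.40 to 7.69, its level of Tspan2, an oligodendrocyte gene, was 7.54 against 6.77 to 6.85, and its mean signal was 58.0 units against 73.4 to 74.9.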

How the results depend on the processing

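No member passed the test under any alternative run, and the lowest adjusted p of a member was 0.876 (limma). Of 411 member values under alternatives, 397 kept their direction and 14 in 7 genes did not. Part of this agreement was fixed in advance. A change of filter or of the eBayes settings leaves an estimate as it was, and the replicate block repeated the values without it. Averaging the probes of a gene changes nothing where a single probe was tested. Olfml3 was 0.048 with no background model and 0.020 with the processed values, and C1qc was -0.0057 with array weights. With each array left out, the differences ran from -0.13 to 0.062 for P2ry12, -0.070 to 0.13 for Siglech, -0.026 to 0.34 for Gpr34, -0.42 to 0.35 for Olfml3, -0.28 to 0.038 for Ctss and -0.012 to 0.19 for Ctsd. With an offset of 50 in place of 16, 13 of the 22 members shrank by over 1.5 times (Tmem119 to -0.08, Gpr34 to 0.06, Irf8 to 0.15), and the activation median was 0.01. The call of Dusp8 was less stable than its direction. With no filter on dim probes 0 of 25697 were called (Dusp8 adjusted p = 0.141), with the replicate block on replicates 1 to 3 of the processed values 0 were called (Dusp8 -2.42, adjusted p = 0.122), and with each array left out the count was 0 to 1. It was 0 without ko_148, ko_168, wt_136, wt_145 or wt_177, with Dusp8 at -2.64 to -2.37 over all 7. Leaving out an array also leaves fewer samples. Signals near background, as in C1qa, Itgam and Fcer1g, allow only bounds.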
